A study of Mus musculus with 4 samples.

Results

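The GIMAP genes (GTPases of immunity-associated proteins) were read from an RNA-seq count table of mouse regulatory T (Treg) cells by matching its gene column to Gimap1, Gimap3, Gimap4, Gimap5, Gimap6, Gimap7, Gimap8 and Gimap9. All 8 were listed, among 24418 genes in all, and no other listed symbol began with Gimap. Treg cells from spleens and lymph nodes of Foxp3YFP-Cre mice (Foxp3yfpCre in the labels) aged 8 to 12 weeks were sorted as CD4+ YFP+ cells and held for 3 h with 100 ng/mL thymic stromal lymphopoietin (TSLP), a cytokine made by epithelial cells, or with PBS. There were 2 PBS libraries and 2 TSLP libraries. The Foxp3 allele that drives YFP-Cre was carried by both groups, so no group lacked it. Nothing in the labels or the methods says whether the samples of a group came from separate mice or cultures, so the p-values below measure only the spread between these samples. The question was which of these genes Treg cells express, in what proportion to each other, and whether 3 h of TSLP altered either.

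GIMAP proteins are GTP-binding proteins found mainly in lymphocytes, with a GTPase domain of the AIG1 type and, in several members, a hydrophobic tail that anchors them in intracellular membranes. Loss of single members such as Gimap1 or Gimap5 costs mice many of their mature peripheral T cells, and the family is known for its part in lymphocyte survival and quiescence. TSLP acts through a receptor that shares the IL-7 receptor alpha chain and is known to activate STAT5.

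A sequence feature that the members share is the loop of the GTPase domain that holds the phosphates of GTP, a loop that many other nucleotide-binding proteins also have, spelled glycine, any 4 residues, glycine, lysine, serine or threonine. It was found in the reading frame of all 8 genes. Because nucleotide binding depends on this loop, its 24 coding bases are printed here for every member in the sense of the gene, with the codon of the invariant lysine in capitals.
Gimap8 loop 1: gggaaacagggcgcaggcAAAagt
Gimap8 loop 2: gggaagcgtggtgttgggAAAagt
Gimap8 loop 3: ggaaggagtggggctggaAAGagt
Gimap9: gggaagactggaaatgggAAGagt
Gimap4: ggaaaaactggagcaggaAAGagt
Gimap6: gggaaaacaggaagcgggAAAagt
Gimap7: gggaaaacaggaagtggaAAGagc
Gimap1: ggcaggactgggaccggcAAGagt
Gimap5: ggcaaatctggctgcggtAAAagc
Gimap3: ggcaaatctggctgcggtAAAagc
The 10 loops held 9 different sequences, since the loops of Gimap5 and Gimap3 were the same base for base. Gimap8, whose reading frame of 688 codons is the longest of the 8, carried 3 loops and every other gene carried 1. In Gimap6 the loop began at codon 110 of 305, whereas in the 6 other genes with 1 loop it began between codons 15 and 37. Each loop lay within 1 coding exon.

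The 8 genes stood side by side on chromosome 6 over 123.6 kb (chr6:48647234-48770851, GRCm38, which is mm10, with GENCODE M21 gene models). In order along the chromosome the loops were at chr6:48650256-48650279, chr6:48656119-48656142 and chr6:48658746-48658769 in exons 2, 4 and 5 of the 5 exons of Gimap8, and at chr6:48677523-48677546 in exon 2 of 2 of Gimap9. They were at chr6:48690421-48690444 in exon 3 of 3 of Gimap4, at chr6:48702750-48702773 in exon 3 of 3 of Gimap6 and at chr6:48723524-48723547 in exon 2 of 2 of Gimap7. The last 3 were at chr6:48742552-48742575 in exon 3 of 3 of Gimap1, at chr6:48752594-48752617 in exon 3 of 3 of Gimap5 and at chr6:48765887-48765910 in exon 5 of 5 of Gimap3. Gimap6 and Gimap3 were on the reverse strand and the other 6 genes on the forward strand.

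Gimap3 and Gimap5 are near copies, which bears on how their reads could be told apart. Their coding sequences were identical at 90.4% of 895 aligned bases. Of all 50-base windows of the Gimap3 transcripts, 7.52% (190 of 2528) also occurred in Gimap5, and 4.53% of the Gimap5 windows (190 of 4195) occurred in Gimap3. The libraries were read for 50 bases from 1 end, so a read from such a window could not be placed in 1 gene. For Gimap1, 35.5% of windows were held by another gene model, mostly an antisense RNA (Gimap1os) or a read-through model (Gm28053). Neither of these was used here, and without a stated strand setting for the counting, reads of Gimap1 and of its antisense partner cannot be told apart. Gimap4, Gimap8 and Gimap9 shared no window with any other gene.

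Reads assigned to genes numbered 11328132 and 10724392 for the libraries PBS 1 and PBS 2, and 11761234 and 10271571 for TSLP 1 and TSLP 2. The labelled cell type was borne out by its markers. Foxp3, the defining factor of Treg cells, had 2514, 5065, 4784 and 4824 reads in that order of libraries, Ctla4 had 14544, 12245, 14091 and 12870, and Cd4 had 5804, 6291, 6205 and 6184. Library PBS 1 stood apart from the other 3. Its Foxp3 count was the lowest. Across 2679 genes, the deviation of each library from the mean of the other 3 was set against exon length. It fell with length in PBS 1 (Spearman −0.657 across genes, which are not independent). It rose with length in PBS 2 (0.569), TSLP 1 (0.399) and TSLP 2 (0.303). PBS 1 was part of the mean used for each of these libraries, so its own trend pushed their values upward. The opposite signs are therefore not independent. All 8 Gimap genes, with exons of 1642 to 4149 bases, were shorter than the median of 4480 bases of genes with at least 10 reads. The fold changes, the summed level, the joint share and the order of levels are therefore also given below without PBS 1.

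Markers of other cells were scarce. In the same order of libraries, Cd8a and Cd8b1 of CD8 T cells summed to 13.4, 7.83, 8.84 and 11.97 CPM (reads scaled to a library total of 1000000 reads on genes), and the 3 B cell genes Cd79a, Cd79b and Ms4a1 to 0.618, 10.4, 4.08 and 9.35. The 3 NK cell genes summed to 2.56, 3.82, 2.38 and 10.5 CPM, with Eomes the most abundant and Ncr1 at 0 reads in all 4 libraries. The 6 myeloid genes summed to 61.5, 40.1, 41.2 and 42.5 CPM, most of it Cst3, which lymphocytes also express, with Adgre1 at 0 reads throughout. Of 5 endothelial genes, Cdh5, Kdr, Tie1 and Emcn had 0 reads in every library, and the whole signal was Pecam1, which T cells also express, at 1992, 1694, 1382 and 1544 reads. The myeloid sum was highest in PBS 1 and the B and NK sums were highest in PBS 2 and TSLP 2. Within the myeloid list, Cd68 (15.4, 6.15, 5.02 and 1.56 CPM) and Itgam (2.03, 1.77, 0.340 and 0.681) were lower in both TSLP libraries. So were Pecam1 and, as given below, Gimap3 and Gimap5. Cst3, Lyz2 (1, 43, 37 and 40 reads) and Csf1r (1, 0, 1 and 27 reads) overlapped between groups. Itgam rested on only 23, 19, 4 and 7 reads. Of all genes tested, 14.4% were lower in both TSLP libraries. The part of these other cells in the Gimap values was not tested.

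The cluster as a whole was strongly expressed. Levels that are compared between genes are given as RPKM (CPM per kilobase of exon), computed from the whole reads. Gimap4, which is known to accelerate T cell apoptosis, had 339 and 328 RPKM with PBS, against 332 and 380 RPKM after TSLP (mean 345 ± 23.6, SD, n = 4). Gimap6, which is linked to autophagy in T cells, had 431 and 282 RPKM with PBS and 330 and 301 with TSLP (336 ± 66.4). Gimap3 had 346 and 361 RPKM with PBS and 274 and 299.8 with TSLP (320 ± 40.5). These 3 genes ranked 59, 63 and 71 among the 13378 genes with a read and a known length, and their ranges overlapped, so they could not be ordered among themselves.

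The other 5 genes followed in steps that, measured over all exons, did not overlap in any library. Gimap9 had 99.996 and 94.9 RPKM with PBS and 92.7 and 109 with TSLP (99.2 ± 7.40, SD, n = 4), and lay 3.23-fold below Gimap3. Gimap8, the member with 3 GTPase domains, had 65.5 and 89.7 with PBS and 82.5 and 90.4 with TSLP (82.0 ± 11.6), so Gimap9 was above it by only 1.21-fold, though in 4 of 4 libraries. Gimap1, which mature B and T cells need to persist, had 47.5 and 52.4 with PBS and 50.7 and 45.9 with TSLP (49.1 ± 2.95). Below it came the members with the fewest reads. Gimap7, a member whose GTPase activity depends on dimerization, had 37.3 and 22.3 RPKM with PBS and 21.7 and 26.9 with TSLP (27.1 ± 7.22). Gimap5, whose loss causes lymphopenia in rats and mice, was the lowest of the family with 12.1 and 10.7 RPKM with PBS and 9.65 and 10.2 with TSLP (10.7 ± 1.06), yet it still ranked 4281 of the 13378 genes. Measured over the longest transcript or over windows held by no other gene in place of all exons, the first 3 genes came in the order Gimap3, Gimap6, Gimap4 and the other 5 kept their places by mean. The step from Gimap8 to Gimap1 rested on the length used, with means of 96.1 and 93.5 RPKM over the longest transcript and 82.1 and 75.1 over unshared windows. On both of these measures Gimap8 and Gimap1 overlapped, while the steps from Gimap9 to Gimap8, from Gimap1 to Gimap7 and from Gimap7 to Gimap5 held in all 4 libraries, and Gimap1 was the higher in PBS 1 (90.5 against 76.7, and 72.7 against 65.5). Over the longest transcript the means of Gimap7 and Gimap5 also rose, to 49.6 and 19.0 RPKM. Without PBS 1, 6 of the 8 genes kept their rank.

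**Figure D1:**
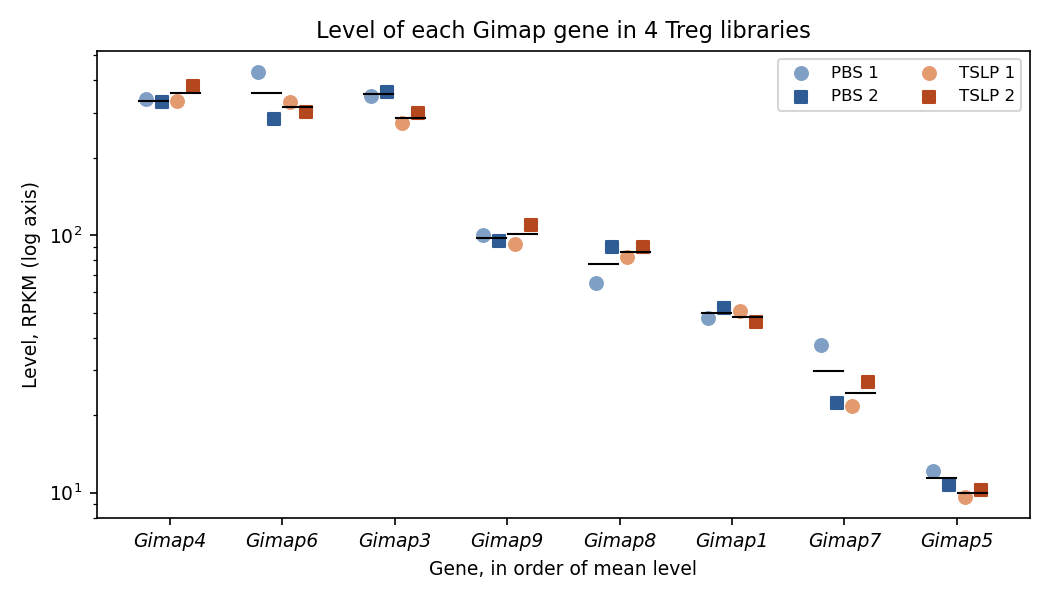
Level of each Gimap gene in RPKM (log axis) in the 4 libraries, with points for single libraries and a short line for the mean of each group of 2. Gimap4, Gimap6 and Gimap3 lie together between 274 and 431 RPKM, and the other 5 genes descend to Gimap5 at 9.65 to 12.1 RPKM.

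Most of the listed genes around the cluster were far lower. Within 150 kb on either side the table listed 13 other genes, of which 4 had 0 reads in all libraries. The highest of the rest was Zfp862-ps, a pseudogene, at a mean of 11.6 RPKM, with Lrrc61 next at 4.27. AI854703, 13.5 kb before Gimap8, had 35, 12, 0 and 0 reads in PBS 1, PBS 2, TSLP 1 and TSLP 2. Tmem176b, 63.0 kb beyond Gimap3, had 32, 1, 12 and 52 reads. Each Gimap gene but Gimap5 was thus above every listed neighbour, and Gimap5 was close to the highest of them.

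**Figure D2:**
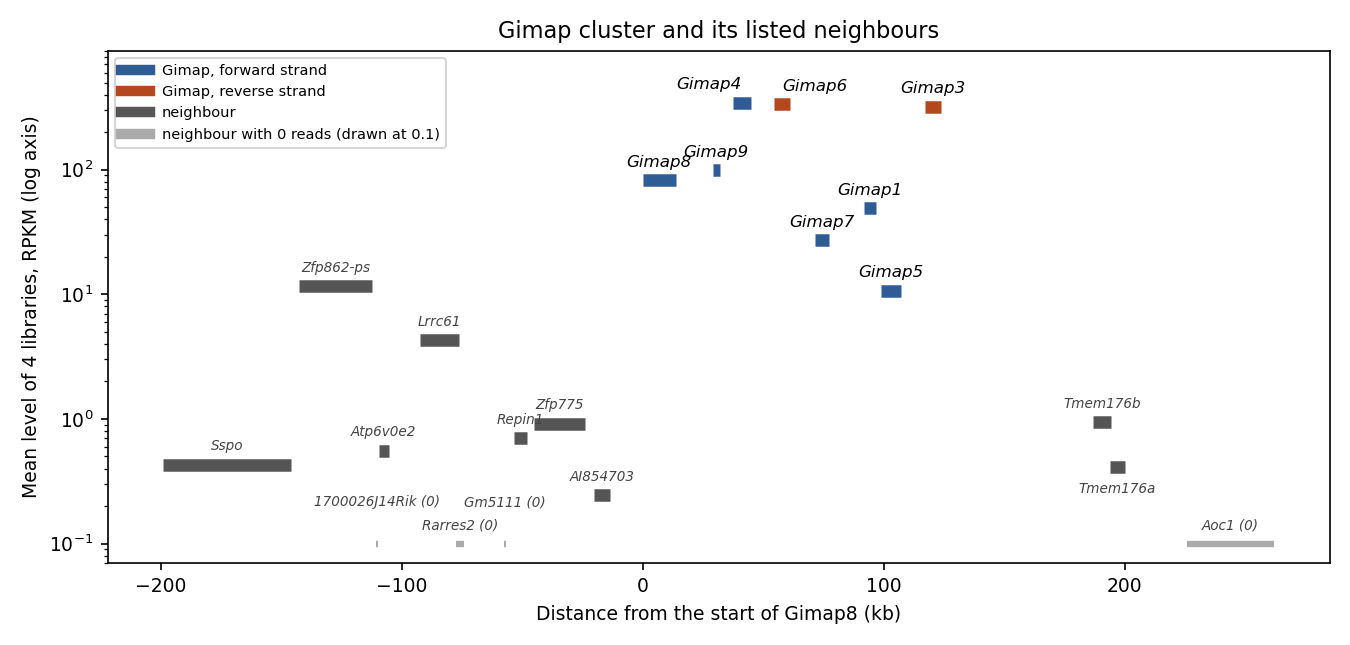
Position of the Gimap genes and of the 13 listed neighbours, in kb from the start of Gimap8, against the mean level of the 4 libraries in RPKM (log axis); bars span each gene. The 8 Gimap genes stand between 10.7 and 345 RPKM, and the neighbours at 11.6 RPKM or less, with 4 of them at 0 reads drawn at the foot of the axis.

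Within the cluster, Gimap4, Gimap6 and Gimap3 supplied most of the transcripts. Their joint share of the summed RPKM of the 8 genes was 81.0% and 78.2% for the PBS libraries, followed by 78.4% and 77.6% with TSLP (mean 78.8%). This mean was 78.1% without PBS 1, 74.6% over the longest transcripts and 77.0% over unshared windows. Gimap3 made up 25.1% and 29.1% with PBS and 22.9% and 23.7% with TSLP, so its share was lower in both TSLP libraries. The share of Gimap4 was 24.6% and 26.5% with PBS and 27.9% and 30.1% with TSLP, higher in both TSLP libraries. Gimap6 took 31.3% and 22.7% with PBS and 27.6% and 23.8% with TSLP, and these ranges overlapped. The shares of Gimap5 (0.879% and 0.866% with PBS, 0.809% and 0.808% with TSLP) and Gimap9 (7.25% and 7.65%, then 7.77% and 8.65%) did not overlap either, which makes 4 of 8. No background was counted for shares. In normalized counts, a different measure, 2 of the 8 members did not overlap between groups, beside 28.9% of all genes tested. The shares of a library add up to 100%, so they are not independent of each other and were not tested.

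**Figure D3:**
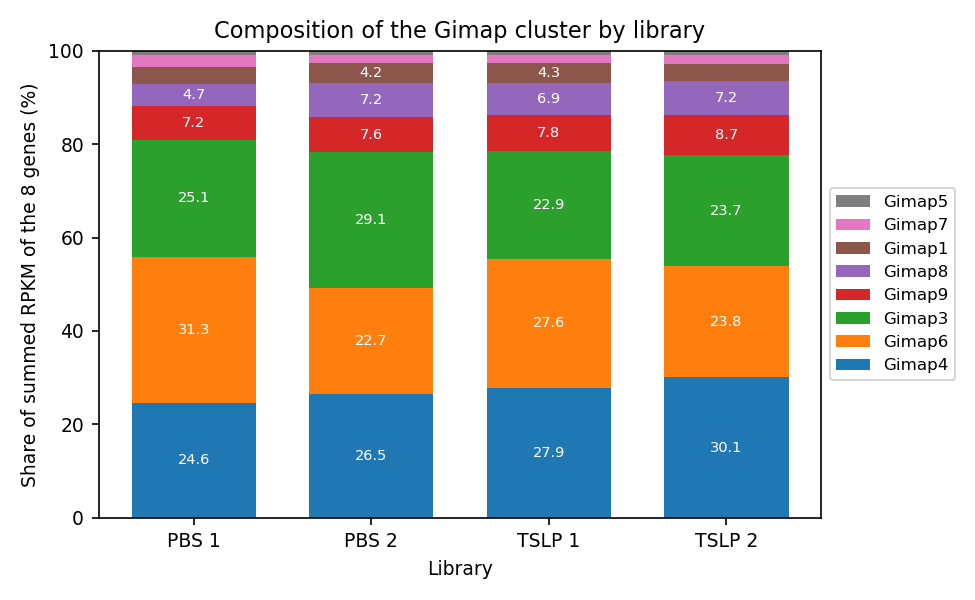
Share of each Gimap gene in the summed RPKM of the 8 genes, in percent, 1 bar per library. Gimap4, Gimap6 and Gimap3 fill 77.6% to 81.0% of each bar, and PBS 1 differs from PBS 2 chiefly in Gimap6 (31.3% against 22.7%).

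No Gimap gene passed the test for a difference between TSLP- and PBS-stimulated Treg cells. With limma and Benjamini-Hochberg adjustment over 11392 genes, 0 genes (0% of those tested) were called at an adjusted p under 0.05, and the adjusted p of every Gimap gene was 0.9999. Their unadjusted p ran from 0.225 for Gimap3 to 0.850 for Gimap1. At an unadjusted p under 0.05 the test found 0 of the 8 Gimap genes and 192 of all genes (1.69%). edgeR and DESeq2 on the recovered whole reads also called 0 genes after adjustment, with 234 genes each at an unadjusted p under 0.05 and none of them a Gimap gene. In bulk RNA, fewer cells of a kind and less RNA per cell cannot be told apart, and this holds for every value below. Of the 8 genes, 3 had a positive and 5 a negative log2 fold change, with a median of −0.09 beside 0.01 for all genes tested, and a median of −0.03 once the length trend of each library was removed.

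Gimap3 and Gimap5, the near copies, were the only members whose groups did not overlap, both with the TSLP libraries lower. In normalized counts Gimap3 had 9800 and 9970 with PBS and 7810 and 8293 with TSLP (9885 ± 120 against 8051 ± 341, SD, n = 2 each). Its log2 fold change was −0.30 ± 0.23 (SE), 0.814-fold, with a 95% interval of −0.81 to 0.22. Both PBS libraries of Gimap3 were above both TSLP libraries, by more than either pair differed within itself, yet its p ranked only 2103 among the 11392 genes. With the length trend removed, the separation of Gimap3 all but vanished, since its log2 level about its mean was −0.050 and 0.245 with PBS and −0.139 and −0.056 with TSLP, and its log2 fold change was −0.19. Gimap5 had normalized counts of 552 and 478 with PBS and 444 and 455 with TSLP (515 ± 52.5 against 449 ± 7.69), a log2 fold change of −0.19 ± 0.27 and an interval of −0.80 to 0.42. The gap between the Gimap5 groups was smaller than the gap between its PBS libraries. Across all genes tested, 28.9% had groups of 2 that did not overlap and 14.4% had the TSLP libraries lower, so 2 of 8 was near the background.

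The other 6 genes overlapped between groups. Gimap6 had normalized counts of 16554 and 10574 with PBS and 12772 and 11309 with TSLP, and its log2 fold change of −0.14 ± 0.29 had an interval of −0.79 to 0.51. Gimap7 had 953 and 556 with PBS and 560 and 672 with TSLP, for a log2 fold change of −0.25 ± 0.31 (interval −0.95 to 0.45). Gimap8 had 2661 and 3563 with PBS and 3381 and 3592 with TSLP, for 0.18 ± 0.23 (interval −0.34 to 0.70). In all of these 3 genes the extreme value was PBS 1, highest for Gimap6 and Gimap7 and lowest for Gimap8. Gimap4 (log2 fold change 0.10 ± 0.22), Gimap9 (0.05 ± 0.22) and Gimap1 (−0.04 ± 0.22) were closest to 0, with 95% intervals reaching from −0.41 to 0.60, −0.43 to 0.54 and −0.53 to 0.45. With the length trend removed, the log2 level of Gimap4 about its mean was −0.29 and 0.06 with PBS and 0.08 and 0.16 with TSLP. On that scale its groups no longer overlapped, and its log2 fold change was 0.24. Gimap5 (0.173 and −0.0007 with PBS, −0.099 and −0.073 with TSLP) and, narrowly, Gimap3 did not overlap there either. The share of all genes without overlap on that scale was not counted, so no background stands beside them. With 2 libraries a group, none of these fold changes could be told from 0.

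**Figure D4:**
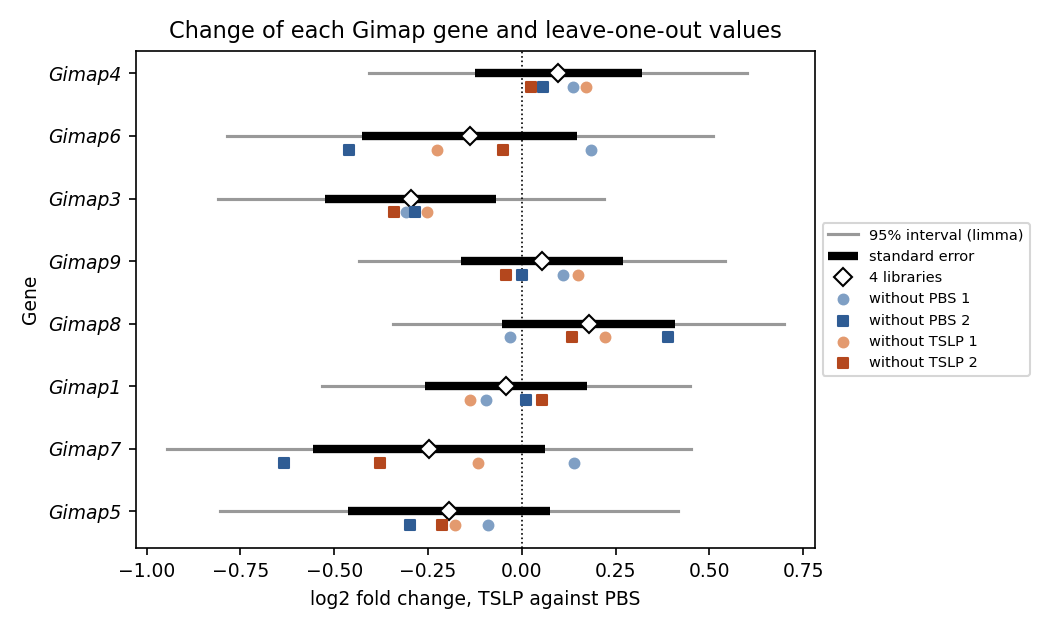
log2 fold change of each Gimap gene, TSLP against PBS, with its standard error (thick line) and 95% limma interval (thin line), and the values with each library left out. All 8 intervals include 0, Gimap3 stays between −0.34 and −0.25 whichever library is left out, and Gimap6, Gimap7 and Gimap8 change sign without PBS 1.

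The direction of several members depended on PBS 1. Without it, the log2 fold change was 0.18 for Gimap6, 0.14 for Gimap7 and −0.03 for Gimap8, each of the opposite sign to the value with all libraries. Without PBS 2, which leaves PBS 1 alone for its group, Gimap6 (−0.46), Gimap7 (−0.63) and Gimap8 (0.39) reached an unadjusted limma p under 0.05, but so did 1858 of the 11392 genes, and none passed adjustment. Gimap3 was negative with any library left out (−0.34 to −0.25), and so was Gimap5 (−0.30 to −0.09).

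Libraries of 1 group differed by gene-specific amounts. The counting error of a Gimap gene in a library was between 0.765% for Gimap6 and 4.79% for Gimap5 (counting error only, since copies made by PCR were counted). Between the PBS libraries, the higher normalized count exceeded the lower by 71.3% for Gimap7, 56.5% for Gimap6 and 33.9% for Gimap8, but by only 1.73% for Gimap3. Between the TSLP libraries these figures were 20.1%, 12.9%, 6.23% and 6.18%. Gimap5 differed by 15.5% between the PBS and 2.45% between the TSLP libraries. For Gimap1 (7.65% and 14.1%), Gimap4 (5.72% and 10.7%) and Gimap9 (7.83% and 14.3%), as for Gimap3, the TSLP pair was the less alike, so as deposited the PBS pair was the wider in 4 of 8 genes. With the length trend removed, the order of the pairs turned around for these 4 genes, and the PBS pair was the wider in 8 of 8. On that scale the log2 levels of PBS 1 and PBS 2 about the mean of the gene were −0.16 and 0.13 for Gimap1, −0.050 and 0.245 for Gimap3, −0.29 and 0.06 for Gimap4 and −0.29 and 0.08 for Gimap9. Those of TSLP 1 and TSLP 2 were 0.11 and −0.08 for Gimap1, −0.139 and −0.056 for Gimap3, 0.08 and 0.16 for Gimap4 and 0.05 and 0.16 for Gimap9.

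**Figure D5:**
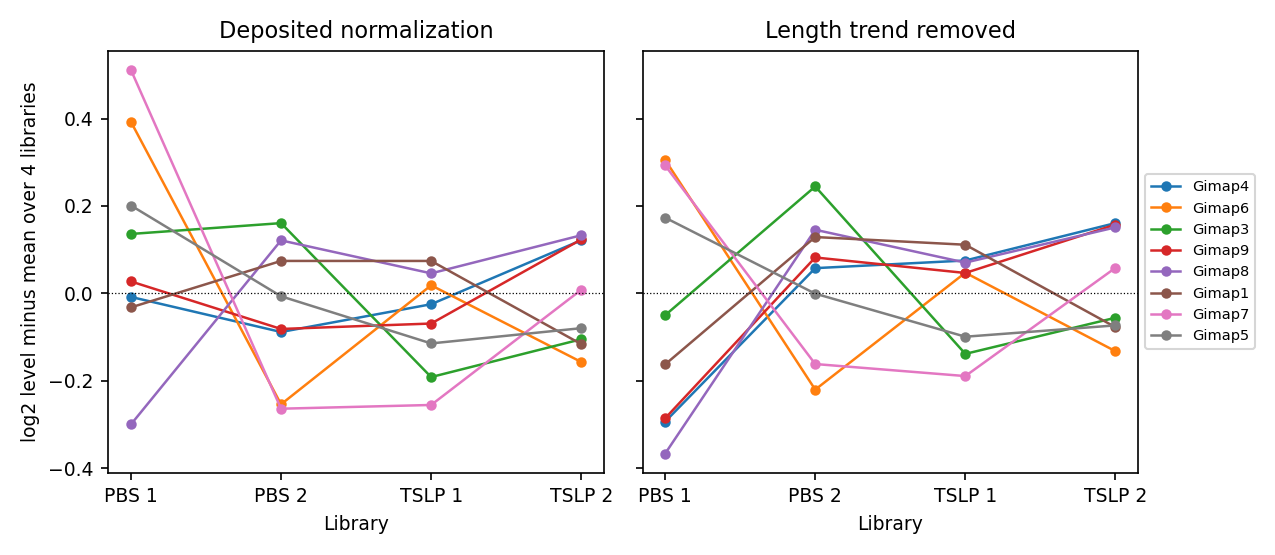
log2 level of each Gimap gene in each library minus its mean over the 4 libraries, as deposited (left) and after removal of each library's trend over exon length (right); lines join the values of a gene and carry no order. Gimap6 and Gimap7 are high and Gimap8 low in PBS 1 in both panels, while Gimap3 is lower in both TSLP libraries in the left panel, and in the right panel its PBS 1 (−0.050) and TSLP 2 (−0.056) nearly meet.

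The summed output of the cluster was close to level between groups. The 8 genes together had 3713, 3263, 3172 and 3284 CPM in the order of libraries used above, which is 0.371%, 0.326%, 0.317% and 0.328% of reads on genes. The means were 3488 ± 318 with PBS and 3228 ± 79.0 with TSLP, a log2 difference of −0.11 (exact two-sided permutation test, p = 0.667, where 2 against 2 cannot give a p below 0.333). PBS 1 was the high library and the other 3 lay close together. The log2 difference was −0.016 without PBS 1, −0.20 without PBS 2 and −0.020 with the length trend removed. With the deposited normalization the highest library exceeded the lowest by 16.4%, and after removal of the length trend by 2.29%.

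Ratios between members remove whatever scales a whole library. They do not remove a trend over exon length, since the members differ in length, and no ratio was computed with that trend removed. The ratio of Gimap4 to Gimap3 was 0.980 and 0.911 with PBS and 1.22 and 1.27 with TSLP. Gimap3 stood 3.46 and 3.80 times above Gimap9 with PBS and 2.95 and 2.74 times with TSLP. It stood 5.29 and 4.02 times above Gimap8 with PBS and 3.32 and 3.31 times with TSLP. In each of these ratios Gimap3 was relatively lower in both TSLP libraries. The ratio of Gimap3 to its near copy Gimap5 was 28.6 and 33.6 with PBS and 28.3 and 29.4 with TSLP, with overlap. In all, 8 of the 28 pairs of members had ratios that did not overlap between groups, 4 of them among the 7 pairs with Gimap3. Over all pairs of 5116 well counted genes (mean normalized count of at least 400) the share was 24.8%, close to that of the Gimap pairs, so the ratios set the family apart from other genes no more than the levels did.

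Since TSLP signals through STAT5, the promoters of the 8 genes (RefSeq, GRCm38.p6, 250 bases before to 50 after a start site, with 9 promoters because Gimap8 has 2 starts) were searched for TTCNNNGAA, the palindromic core that STAT5 binds. It occurred in 4 of the 9 promoters (4 genes) and in 8.3% of 32851 promoters of all genes. The matches are printed with their flanks in the sense of the gene and the match in capitals, so that they can be set beside the values above.
Gimap8: aacctctttcTTCCTAGAAacatttggaa
Gimap6: ttagaccttgTTCTAAGAAaagagattta
Gimap7: tgcagtcagaTTCTTTGAAg
Gimap3: agcaccccttTTCAGAGAAactcatgtac
The Gimap8 match lay at chr6:48647304-48647332 (forward strand), at position −47 from the later of its 2 start sites. The promoter of its earlier start held no match. In the order printed, the other matches lay at chr6:48708460-48708488 (reverse, −234 from the start site), chr6:48718651-48718670 (forward, 40) and chr6:48770838-48770866 (reverse, −5). Of the genes with a match, Gimap8 had a positive and the other 3 a negative log2 fold change, and none passed the test. On both strands, TGTGGT, a core of RUNX sites, was found in 3 of the 9 promoters (Gimap1, Gimap4, Gimap7) and in 16.8% of all promoters. CAGGAAG, an ETS core, was found in 3 of the 9 (Gimap3, Gimap5, Gimap9) against 13.3%, and GTAAACA, a FOXO core, in 1 of the 9 (Gimap3) against 3.65%. These are matches of letters and not sites of binding.

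Genes of lymphocyte survival and quiescence, the processes for which the family is known, likewise held no gene at an unadjusted limma p under 0.05. Of 10 BCL2 family genes, 5 had a positive and 5 a negative log2 fold change (median 0.02). Mcl1, the most abundant of these survival genes, had 11338 and 8099 reads in PBS-stimulated cells and 10074 and 7980 in TSLP-stimulated cells (log2 fold change −0.09), so the groups overlapped. Bcl2l11, which encodes the death-promoting BIM, had 3204 and 3257 reads in PBS-stimulated cells and 3928 and 3843 in TSLP-stimulated cells (0.28), with both TSLP libraries higher. The survival gene Bcl2 (0.25) and the pore-forming Bak1 (0.42) were also higher in both TSLP libraries and the death-promoting Bbc3 (−0.38) lower in both, which makes 4 of 10 genes without overlap between groups, beside 28.9% of all genes tested. Bax, a pore-forming killer, had a log2 fold change of −0.20 and Bcl2a1b, a survival gene, of 0.12. Of 13 genes of resting T cells, 8 were positive and 5 negative (median 0.04). The most abundant were Ccr7, the lymph node homing receptor (−0.17), Btg2 (0.07) and Btg1 (0.04), which restrain proliferation, and Tcf7, a transcription factor of naive T cells (0.05). Of 10 activation genes, 3 were positive and 7 negative (median −0.02), among them the early response genes Nr4a1 (−0.19) and Nr4a3 (0.16) and the costimulatory receptors Tnfrsf4 (−0.01) and Tnfrsf9 (−0.01).

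Among 29 genes with a mean level within a factor of 2 of the summed Gimap CPM, the 5 whose pattern over the 4 libraries lay closest to that sum were Hsp90ab1, a chaperone, with a root mean square log2 difference of 0.0877, Eef2 (0.113) and Eef1a1 (0.114), which serve translation, H2-K1 (0.122), an MHC class I gene, and Ccr7 (0.128). Hsp90ab1 had 5896, 4637, 5243 and 4807 CPM in that order. As with the Gimap sum, PBS 1 was its highest library.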

How the data were processed

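RNA of 2 PBS and 2 TSLP samples was sequenced by the authors from a directional library kit. Per the labels and the methods, reads were mapped to mm10 with HISAT2 and counted with HTSeq, and the deposited values are counts divided by DESeq2 size factors, a normalized signal and not raw counts. The strand setting and gene annotation of the counting are not given in the sources used here. The labels name a column kit for RNA extraction and the methods name Trizol.

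Dividing by the smallest step of each column gave whole reads for 100% of values (within 0.01) in all 4 libraries. The deposited signal was tested on log2(value + 1) with limma 3.58.1 (R 4.3.3, eBayes with trend), without covariates, keeping genes that reached 10 normalized counts in 2 libraries or more. edgeR 4.0.16 and DESeq2 1.42.0 were run on the recovered whole reads as alternatives and called 0 genes each. Fold changes of low genes on this scale could be larger or smaller than with edgeR on whole reads. The log2 values with limma and edgeR were 3.35 and 2.02 for 0610009B22Rik, and −4.41 and −7.55 for AI854703. Other alternatives were scaling, filter, pseudocount, length trend, replicate block and leaving out each library, where a lone sample is assumed to vary like the other group. Sums per library were compared by exact permutation. RPKM used exon lengths of GENCODE M21, matched by symbol. Scripts were tested on simulated data. Named were all members, up to 4 genes of highest level from each list, any list gene under an unadjusted p of 0.05, and the 5 genes closest in pattern to the sum. Zfp862-ps, AI854703, Tmem176a, Bcl2, Bak1, Bbc3, Ikzf2 and the marker genes at 0 reads were chosen after their values were seen. In the table, 27 gene names had been turned into dates. The members and lists were chosen with earlier results of these data known. A count of 3 reads, the limit that a count of 0 allows, was 0.255 to 0.292 CPM.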

Additional observations from a re-analysis of the deposited data

How the results depend on the processing

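No gene passed adjustment in any of the 16 fits. Removing the length trend moved the median log2 fold change of the Gimap genes to −0.026 and that of Gimap1 to 0.034, moved Gimap4 to 0.24, Gimap9 to 0.20, Gimap7 to −0.13, Gimap6 to −0.085, Gimap3 to −0.19 and the summed level to −0.020, and left 271 genes at an unadjusted p under 0.05. Without a filter on low counts 358 of 13945 genes were under 0.05. With 1 library left out, this number ranged from 79 (without TSLP 2) to 1858 (without PBS 2), the Gimap median from −0.14 to 0.038, Gimap1 from −0.14 to 0.053, Gimap6 from −0.46 to 0.18, Gimap7 from −0.63 to 0.14, Gimap8 from −0.032 to 0.39 and Gimap9 from −0.042 to 0.15. The share of Gimap4, Gimap6 and Gimap3 was 74.6% over the longest transcripts and 77.0% over unshared windows. Beyond the fewer samples or genes used, the cause was not tested. Samples of the same replicate number did not deviate together (correlation 0.02 across 8174 genes) and share only a number. With the replicate number as a replicate block, limma had 258 and edgeR 215 genes under 0.05, none of them a Gimap gene. Of the alternative values, 169 were labelled as the same. For fold changes of single genes this meant the same direction and side of the threshold. For medians, sums and shares it meant a value within the spread between libraries. For counts of genes and of ranks kept it meant a value within a fixed factor of the main value. The 271 genes with the length trend removed, beside 192 in the main fit, were thus labelled as the same. So were orders of levels in which 6 of 8 ranks held. Another 7 values moved further (1 of them, the Gimap median without PBS 1, across 0) and 8 values of single genes changed sign. With 2 libraries a group, small changes were beyond what these data could show, most of all for Gimap7, with the widest interval (−0.95 to 0.45).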

Other observations

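GTPases outside the cluster were listed as a point of reference. Of 17 interferon-inducible GTPase genes, which defend cells against intracellular pathogens, 9 had a positive and 8 a negative log2 fold change (median 0.02) and 0 were under an unadjusted limma p of 0.05. Igtp, the most abundant of them, had 4027 and 2599 reads in PBS-stimulated cells and 3020 and 2823 after TSLP (log2 fold change −0.14), followed by Gbp2 (−0.09), Irgm2 (0.02) and Ifi47 (0.05). As for Gimap6, the highest library of Igtp was PBS 1 and the groups overlapped. Of 12 small GTPase genes of adhesion, migration and signalling, 4 were positive and 8 negative (median −0.07), again with 0 under 0.05. The most abundant were Rap1b (0.05), which drives integrin activation, and Cdc42 (−0.03), Rac2 (−0.10) and Rac1 (−0.13), which shape the actin cytoskeleton. The interferon-inducible genes summed to 1383, 1466, 1290 and 1566 CPM in PBS 1, PBS 2, TSLP 1 and TSLP 2, and the small GTPases to 3899, 3361, 3565 and 3540.

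Of 8 chromosomal neighbours chosen as a list, 7 were in the table and 5 passed the filter on low counts. All 5 had a positive log2 fold change (median 1.71, that of Tmem176b) with 0 under an unadjusted limma p of 0.05. The list summed to 14.65 and 26.2 CPM with PBS and 27.7 and 23.1 with TSLP, so the groups overlapped. In CPM, PBS 2 lay above both TSLP libraries for Repin1 and Zfp775, between them for Lrrc61 and below both for Tmem176a and Tmem176b. The positive direction of Repin1 and Zfp775 thus rested on PBS 1. That of Tmem176b, whose value is the median, rested on PBS 2, with 1 read against 32 in PBS 1 and 12 and 52 with TSLP. The counts of these neighbours were low. AI854703, the nearest neighbour but not on that list, went the other way. It had 35 and 12 reads in PBS-stimulated cells and 0 in both TSLP libraries. Tmem176a, an ion channel gene of myeloid cells and some T cells, had 0 and 13 reads in PBS-stimulated cells and 27 and 28 after TSLP, and Repin1 had 0 and 55 reads with PBS, against 37 and 29 with TSLP. Of the Treg marker genes, 4 of 5 were positive and 1 negative (median 0.26), a tally that rested in part on PBS 1. Beside PBS 2 alone (472 CPM), Foxp3 was not higher with TSLP (407 and 470). Tnfrsf18 was not lower (348, against 356 and 427). In PBS 2, Ikzf2 and Il2ra lay between the TSLP libraries and Ctla4 (1142) below both (1198 and 1253). Within PBS 1 these markers split. Ikzf2 (568 CPM against 976, 996 and 953 in PBS 2, TSLP 1 and TSLP 2) and Il2ra (342 against 446, 433 and 498) were lowest there like Foxp3 (222 against 472, 407 and 470), whereas Tnfrsf18 (532) and Ctla4 (1284) were highest there.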
